A study of Mus musculus with 4 samples.

Results

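The genes described here are 9 transcription regulators of blood stem cells, Mecom, Hlf, Gata2, Tal1, Lyl1, Lmo2, Erg, Fli1 and Gfi1b. They were chosen by symbol from the 32285 genes of the series, and each symbol occurred once in the feature list, so all 9 were measured. The measurements were single-cell RNA-Seq counts of LSK cells (Lineage-, Sca-1+, cKit+ bone marrow cells, the fraction that holds stem cells and multipotent progenitors) from C57BL/6 mice. Mice labelled WT were compared with Sin3B H-/- animals. Both carry the floxed Sin3B F/F alleles, and males are stated for the homeostasis library. Sin3B H-/- animals have in addition Vav1-iCre, a Cre driven by the blood cell promoter Vav1, which removes Sin3B, a scaffold of a histone deacetylase complex, from the blood system from embryonic life onwards. No source used here gives the age of these mice. Mice were untreated (homeostasis) or had received a single intraperitoneal dose of 100 mg/kg 5-fluorouracil (5-FU), which kills dividing progenitors, 9 days earlier. Each condition was 1 library with 1 pool of 2 mice per genotype. Wild-type cells carried hashtag antibody B0096 and knockout cells B0157, an assignment that comes from the study's methods and not from the labels. With 1 pool per genotype there is no replicate, so no test was possible. Intervals given here are exact 95% Poisson, binomial or conditional intervals that cover counting error only, and differences between mice are not in them. A difference is counted below when it is at least 1.5-fold and the gene has at least 50 UMIs (unique molecular identifiers, 1 per captured RNA molecule) over both pools.

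Gata2, Tal1, Lyl1, Lmo2, Erg and Fli1 belong, with Runx1, to the group of factors known as the stem cell heptad, which bind together at enhancers of stem and progenitor cells. Tal1 and Lyl1 are related basic helix-loop-helix proteins that pair with E proteins, Lmo2 is a bridge without DNA binding of its own that ties them to GATA factors through Ldb1, and Erg and Fli1 are ETS factors. Gata2 maintains stem cells and starts the megakaryocyte, erythroid and mast cell programs. Mecom (Evi1) and Hlf, a PAR bZIP factor, mark long-term stem cells and are switched off early in differentiation. Gfi1b is a transcriptional repressor that acts in megakaryocyte and erythroid cells and works with Kdm1a and Rcor1.

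The promoter windows below show where fixed letter patterns of binding motifs of the group's own factors occur before the start sites of 5 members. Mecom and Hlf are shown because they were highest in stem cells in every pool with large differences to the lineage classes, Gata2 and Gfi1b because they differed by 1.5-fold between genotypes over all kept cells at homeostasis, and Lyl1 because it was level across classes at homeostasis. Each is the 250 bases before an annotated start, 5′ to 3′ on the strand of the gene, from RefSeq on GRCm38.p6. The submitters' notes list build mm9, and the build behind the counts was not checked. Capitals mark matches on either strand to AGATAA (read by Gata2 and its relatives), CAGNTG (the E-box, read by Tal1 and Lyl1 with E proteins) or CCGGAA (read by ETS factors). These motifs do not overlap one another in the windows shown.
Mecom, chr3:30509760-30510009, minus strand: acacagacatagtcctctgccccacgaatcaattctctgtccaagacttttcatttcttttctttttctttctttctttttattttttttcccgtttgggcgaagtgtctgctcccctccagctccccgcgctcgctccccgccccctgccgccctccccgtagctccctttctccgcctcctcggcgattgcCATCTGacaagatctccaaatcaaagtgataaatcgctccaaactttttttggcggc
Hlf, chr11:90390918-90391167, minus strand: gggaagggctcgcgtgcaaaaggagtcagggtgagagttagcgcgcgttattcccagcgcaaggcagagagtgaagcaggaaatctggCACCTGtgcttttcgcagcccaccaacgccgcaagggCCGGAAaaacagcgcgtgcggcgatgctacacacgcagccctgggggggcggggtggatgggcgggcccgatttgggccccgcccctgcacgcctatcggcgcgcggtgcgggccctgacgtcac
Lyl1, chr8:84701207-84701456, plus strand: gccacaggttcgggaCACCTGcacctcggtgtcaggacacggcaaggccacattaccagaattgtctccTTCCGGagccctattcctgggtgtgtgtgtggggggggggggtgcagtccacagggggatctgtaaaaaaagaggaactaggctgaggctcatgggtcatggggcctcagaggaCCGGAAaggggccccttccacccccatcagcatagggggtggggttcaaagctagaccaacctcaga
Gata2, chr6:88193641-88193890, plus strand: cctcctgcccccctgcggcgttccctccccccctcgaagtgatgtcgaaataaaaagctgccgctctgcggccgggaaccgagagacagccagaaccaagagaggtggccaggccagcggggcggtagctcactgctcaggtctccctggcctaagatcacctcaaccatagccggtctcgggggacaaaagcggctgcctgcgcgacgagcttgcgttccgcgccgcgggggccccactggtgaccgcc
Gfi1b, chr2:28621983-28622232, minus strand: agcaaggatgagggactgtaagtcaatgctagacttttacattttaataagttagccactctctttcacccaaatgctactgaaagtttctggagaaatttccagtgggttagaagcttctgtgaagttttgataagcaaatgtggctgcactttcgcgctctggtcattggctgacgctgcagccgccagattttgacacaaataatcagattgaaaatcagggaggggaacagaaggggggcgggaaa

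These windows give the letters before the start site and no measurement of binding. The Mecom window shown held an E-box, Hlf an E-box and an ETS motif, and Lyl1 an E-box and 2 ETS motifs, while the searched patterns were not found in the Gata2 and Gfi1b windows shown. Another Mecom window, chr3:30013205-30013454, held none of the searched patterns. Other forms of the motifs were not searched. The near form TGATAA, present in the Mecom and Gfi1b windows shown, was not counted as a GATA motif. The promoter table held 12 windows for 7 of the 9 members. Across them the GATA motif was in 2, the E-box in 4 and the ETS motif in 2. Of all 32851 windows of this length, 9.99%, 44.8% and 12.0% held the respective motif. Windows of 1 gene can overlap, so the 12 are not independent.

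At homeostasis 10183 cells of the wild-type tag and 4104 of the knockout tag were kept, and 4853 and 3305 after 5-FU. The median cell had 6966 (wild-type pool) and 6606.5 UMIs (knockout pool) at homeostasis, with 9306 and 10935 after 5-FU. Sin3b itself, in CPM (counts scaled to 1000000 UMIs of the pool), was at 81.7 in the wild-type pool against 23.3 in the knockout pool of the homeostasis library. In the 5-FU library it was at 113 against 15.1 CPM, so Sin3b was lower in the knockout pool of both libraries. When 1 tag had to hold at least 80% of hashtag UMIs, 6137 wild-type and 868 knockout cells were kept at homeostasis. After 5-FU the same rule kept 4954 and 4049 cells. The origin of the knockout pools' remaining Sin3b UMIs was not tested. Kit and Ly6a, the sorted markers, were detected in every pool described. Over classes and genotypes of both libraries the summed endothelial markers ranged from 50.7 to 243 CPM, most of it Pecam1, which stem cells also express, while Cdh5 had at most 6 UMIs in a whole pool. Summed red cell markers ranged from 0.907 to 43.8 CPM, mast cell markers from 3.96 to 126 CPM and T and NK cell markers from 26.6 to 288 CPM, the last mostly Nkg7 with Cd3e at 0. The libraries shared 76 cell barcodes. They differed in condition, Cell Ranger version and cell selection at the same time, so levels were compared within a library only.

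Cells were divided by scores of short marker lists that hold none of the 9 factors. A cell was placed in the stem, myeloid, MkE (megakaryocyte-erythroid) or lymphoid class when that score alone was over 1 SD above the library's mean, and in the marker-low class when none was. Of the wild-type pool 934 and of the knockout pool 759 cells fell in the stem class at homeostasis, which is 9.63% (9.05 to 10.2) and 19.6% (18.3 to 20.9) of scored cells, and 423 and 664 cells after 5-FU, 9.74% (8.88 to 10.7) and 21.2% (19.7 to 22.6). Within 0.2 SD of the cut lay 3.78% to 8.17% of scored cells, depending on list and library, so the classes are ranges of a score. Markers kept out of the gates were highest in their own class for 6 of 6 stem genes in both homeostasis pools and 4 of 6 after 5-FU, where Slamf1 and Aldh1a1 were higher in another class. For the other classes this held for 3 to 4 of 5 genes in each pool, with Irf8 and Lyz2 the exceptions for the myeloid, Cnrip1 and in 1 pool Car2 for the MkE, and Ltb and after 5-FU Mef2c for the lymphoid class. All classes are LSK cells that carry these markers, not mature cells, and cells over more than 1 cut form a mixed class.

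Levels across wild-type classes differed between the factors. Mecom and Hlf were highest in stem-class cells and lower in every lineage class in both libraries. Gata2, Tal1, Fli1 and Gfi1b stayed at or above the stem level in MkE-class cells and were lower in lymphoid and myeloid cells. Lmo2 and Erg were highest in stem cells too, with the lowest Lmo2 in myeloid and the lowest Erg in MkE cells, and Lyl1 was level at homeostasis. In the myeloid class at homeostasis 6 of 9 members were lower than in stem cells by 1.5-fold and 0 were higher, where 19.2% of all genes tested were lower and 8.82% higher. After 5-FU 7 were lower against 23.3% of genes, and 0 higher against 11.7%. In the lymphoid class 6 members were lower at homeostasis (12.5% of genes) and 4 after 5-FU (10.4%), and none was higher in either library (7.42% and 6.47% of genes). In the MkE class 2 were lower and 1 higher at homeostasis (10.1% and 5.78% of genes), and 4 lower and 1 higher after 5-FU (21% and 11.6%). The median log2 ratio of the members to stem cells was -0.80 in myeloid, -1.10 in lymphoid and -0.088 in MkE cells at homeostasis, beside -0.13, -0.048 and -0.050 for all genes tested. After 5-FU it was -0.62, -0.53 and -0.57, beside -0.18, -0.062 and -0.12. Scaling the pools by the median ratio over genes added 0.22 to every log2 ratio in myeloid cells at homeostasis, and 0.26 in myeloid and 0.21 in MkE cells after 5-FU. With it, 3 members were lower in myeloid cells after 5-FU, and the share of all genes lower under this scaling was not counted.

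**Figure D1:**
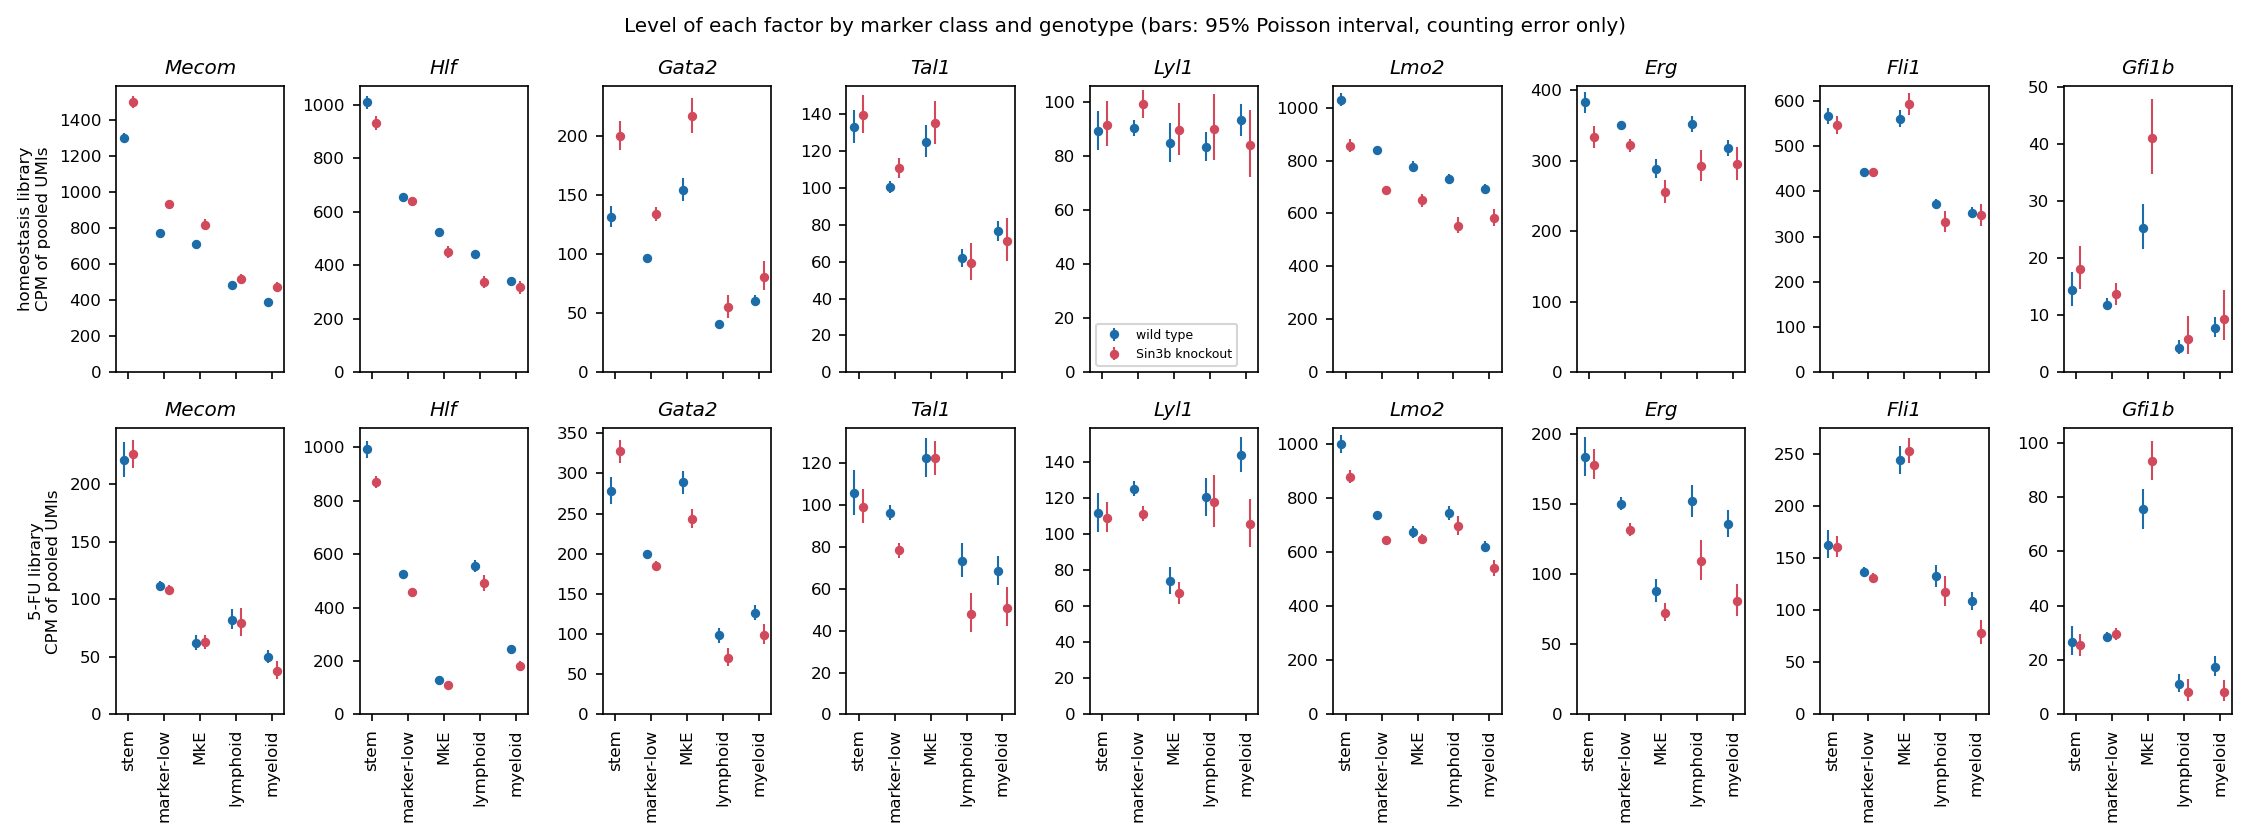
CPM of each factor (y axis, linear from 0, one scale per panel) in 5 marker classes (x axis) of wild-type (blue) and Sin3b knockout (red) pools, upper row homeostasis, lower row 5-FU; points are pooled levels and bars 95% Poisson intervals. Mecom and Hlf are highest in the stem class of every pool, Gfi1b is highest in the MkE class of every pool, and knockout Gata2 lies above wild type in all 5 classes at homeostasis but only in the stem class after 5-FU.

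Mecom at homeostasis was at 1305 CPM (1277 to 1332) in wild-type stem cells, 775 in marker-low, 716 in MkE, 486 in lymphoid and 393 CPM in myeloid cells, and no neighbouring intervals in this order overlapped. That is 3.32-fold lower in myeloid and 1.82-fold lower in MkE than in stem cells. After 5-FU the wild-type levels were 221 CPM (206 to 237) in stem, 112 in marker-low, 82.4 in lymphoid and 62.2 CPM in MkE cells, and the myeloid level was 4.42-fold below the stem level. Stem cells stood alone at the top there, and only the MkE and myeloid intervals overlapped. In the GENCODE annotation, Mecom and Fli1 each overlap 5 small gene models on their own strand, with which reads may be shared.

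Hlf had the steepest single gradient of the group after 5-FU. Its wild-type level was 992 CPM (960.5 to 1025) in stem, 554 in lymphoid, 524 in marker-low, 246 in myeloid and 127 CPM (118 to 137) in MkE cells, with no overlap between neighbours. The stem level was 7.78-fold that of MkE cells but 1.79-fold that of lymphoid cells. Over the alternatives the MkE to stem log2 ratio of Hlf ranged from -3.40 to -0.97, the smallest with the markers kept out of the gates as gates. At homeostasis Hlf went from 1008 CPM (984 to 1032) in stem cells through 654, 522 and 440.0 to 342 CPM in marker-low, MkE, lymphoid and myeloid cells, so the lowest class was myeloid there and MkE after 5-FU. With the markers kept out of the gates as gates, the 5-FU lymphoid ratio turned to 0.087 on the log2 scale.

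Gata2 was highest in MkE-class cells at homeostasis, at 155 CPM (146 to 165) against 132 CPM (123 to 141) in stem, 97.0 in marker-low, 60.8 in myeloid and 40.6 CPM in lymphoid cells of wild type. After 5-FU the MkE and stem levels of 289 CPM (275 to 303) and 278 CPM (261 to 296) overlapped, followed by 199 in marker-low, 126 in myeloid and 98.3 CPM in lymphoid cells. The lymphoid class was lowest in both libraries, 3.24-fold and 2.83-fold below stem cells. Over the alternatives the MkE to stem log2 ratio of Gata2 after 5-FU ranged from -0.11 to 0.27.

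Tal1 and Lyl1, the related helix-loop-helix factors, behaved differently. Wild-type Tal1 at homeostasis was at 133 CPM (124 to 142) in stem and 125 CPM (117 to 134) in MkE cells, which overlapped, then 100.5 in marker-low, 76.6 in myeloid and 61.9 CPM in lymphoid cells. After 5-FU it was 122 in MkE, 106 in stem, 96.4 in marker-low, 73.3 in lymphoid and 68.6 CPM in myeloid cells, and the first 3 of these overlapped as neighbours. Wild-type Lyl1 at homeostasis lay between 83.4 CPM (78.1 to 88.9) in lymphoid and 93.1 CPM (87.3 to 99.2) in myeloid cells, and all neighbours overlapped. After 5-FU Lyl1 was 144 CPM (134 to 154) in myeloid, 125 in marker-low, 121 in lymphoid, 112 in stem and 74.2 CPM (67.1 to 81.8) in MkE cells. It was the only member above its stem level in wild-type myeloid cells with an interval clear of 0, a log2 ratio of 0.37 (0.20 to 0.54) after 5-FU.

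Lmo2 had a UMI in 82.9% to 97.6% of cells of each class and genotype thinned to 4000 UMIs, and its level differed by less than 2-fold between classes. At homeostasis its wild-type level went from 1031 CPM (1006 to 1055) in stem through 839 in marker-low, 776 in MkE and 731 in lymphoid to 694 CPM in myeloid cells, 1.48-fold from top to bottom without overlap. After 5-FU the range was 1000.4 to 620.4 CPM, with stem again highest and myeloid lowest.

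The ETS pair separated in MkE-class cells. Erg was lowest there in wild type of both libraries, at 289 CPM (276 to 302) against 383 CPM (368 to 398) in stem cells at homeostasis and at 88.1 CPM (80.4 to 96.4) against 183 CPM (169.6 to 197) after 5-FU. Fli1, which drives megakaryocyte genes, was level with stem cells in the MkE class at homeostasis, at 561 and 566 CPM, and higher there after 5-FU, at 244 CPM (231 to 257) against 163 CPM (150.1 to 176). Lymphoid cells at homeostasis had Erg at 352 CPM, 1.09-fold below stem cells, and Fli1 at 372 CPM, 1.52-fold below. With the markers kept out of the gates as gates, Fli1 in MkE cells after 5-FU was at -0.083 to stem cells on the log2 scale.

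Gfi1b had the largest excess in MkE-class cells and the fewest UMIs of the members. Wild-type cells held 25.3 CPM (21.6 to 29.5) in the MkE class, 14.3 CPM (11.6 to 17.5) in the stem class and 4.22 CPM (3.10 to 5.61) in the lymphoid class at homeostasis, and 75.4 CPM (68.3 to 83.1), 26.7 CPM (21.7 to 32.5) and 11.1 CPM (8.23 to 14.7) after 5-FU. The MkE level was 1.76-fold and 2.82-fold the stem level. With the markers kept out of the gates as gates, the homeostasis log2 ratio was -0.071, and it was below 1.5-fold with k-means hashtag clustering.

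**Figure D2:**
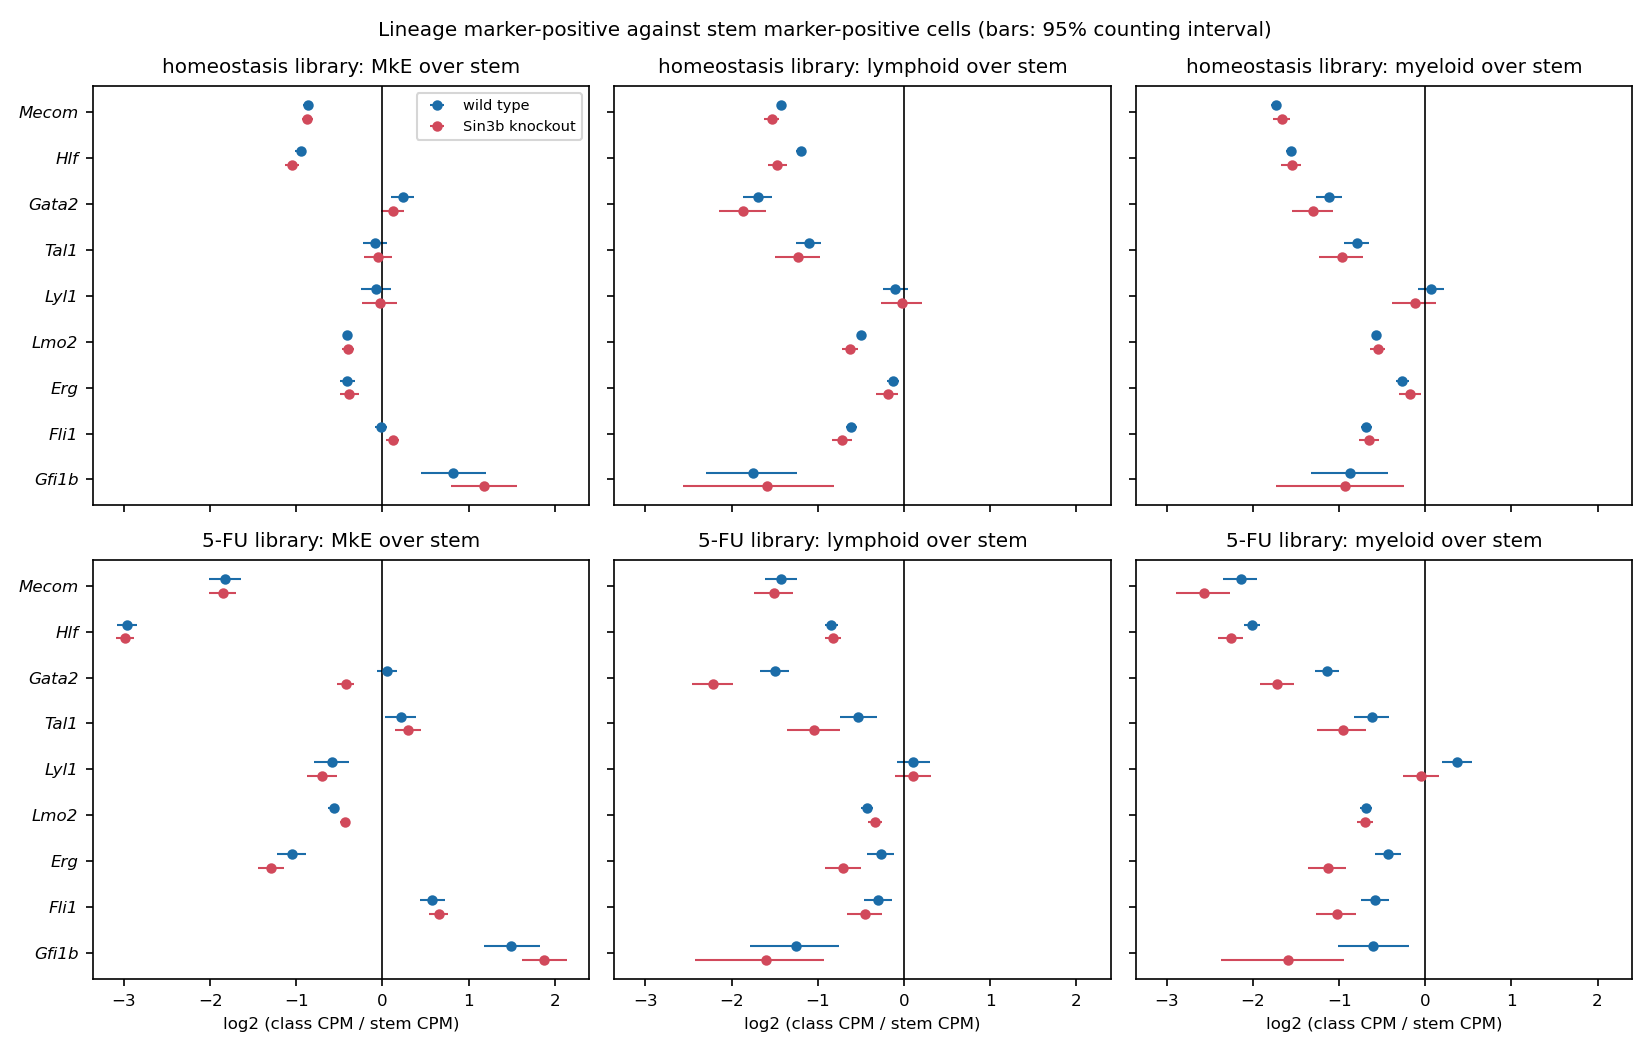
Log2 ratio of CPM in MkE, lymphoid and myeloid cells to stem cells of the same pool (x axis) for each factor (y axis), wild type in blue and knockout in red, upper row homeostasis, lower row 5-FU; bars are 95% counting intervals. Mecom and Hlf lie left of 0 in all 12 pairs of pools, and Gfi1b lies right of 0 only in the MkE panels.

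In knockout cells the highest and the lowest class were those of wild type in both libraries for Mecom, Hlf, Erg and Gfi1b, and 1 or both differed in at least 1 library for the other 5 members. Knockout Mecom and Hlf were highest in stem cells in both libraries, at 1500.5 and 930.0 CPM at homeostasis and 226 and 869 CPM after 5-FU. Knockout Gfi1b was again highest in MkE cells, 2.26-fold and 3.66-fold the stem level. Of the 9 members, 6 were lower by 1.5-fold in knockout myeloid than in knockout stem cells at homeostasis, where 21.8% of genes tested were, with a median log2 ratio of -0.93. After 5-FU 8 were lower, beside 33.2% of genes, and the median log2 ratio was -1.13 against -0.62 in wild type. At homeostasis the highest class of Fli1 was stem in wild type, overlapping MkE, and MkE in the knockout, at 593 CPM (568 to 617) against 546 CPM (526 to 566) in stem cells, and that of Lyl1 was myeloid in wild type and marker-low in the knockout, both overlapping the next class. After 5-FU the highest class of Gata2 and Lyl1 differed between genotypes. For Gata2, the knockout stem level of 327 CPM (313 to 342) lay above the knockout MkE level of 243 CPM (232 to 255), whereas the wild-type levels of these classes overlapped. Lyl1 was highest in myeloid cells of wild type, while in the knockout its lymphoid level of 118 CPM (104 to 133) was highest, within the interval of the next class, and the myeloid to stem log2 ratio was -0.045 (-0.26 to 0.16).

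The members were also read over the whole range of the stem score, without a class cut, in 5 equal bins of all scored cells. From the lowest to the highest bin wild-type Mecom went from 485 over 569.8, 677 and 861 to 1205 CPM at homeostasis. Hlf went from 428 over 478, 562 and 722 to 934 CPM. Both were higher at each step, as were Gata2, Tal1, Lmo2 and Fli1 in this pool, which Lyl1 was not, with 88.6 CPM in the lowest and 89.8 in the highest bin. After 5-FU the lowest and highest bins of wild type held 71.9 and 199 CPM of Mecom, 328 and 891 CPM of Hlf, 163 and 273 CPM of Gata2, and 123 and 114 CPM of Lyl1. Knockout Gata2 in these bins ran from 101 to 200.5 CPM at homeostasis against 72.4 to 128 in wild type, higher in each of the 5 bins. After 5-FU knockout Gata2 was lower than wild type in the 3 lowest bins and higher in the 2 highest, from 147 against 163 CPM to 312 against 273 CPM.

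**Figure D3:**
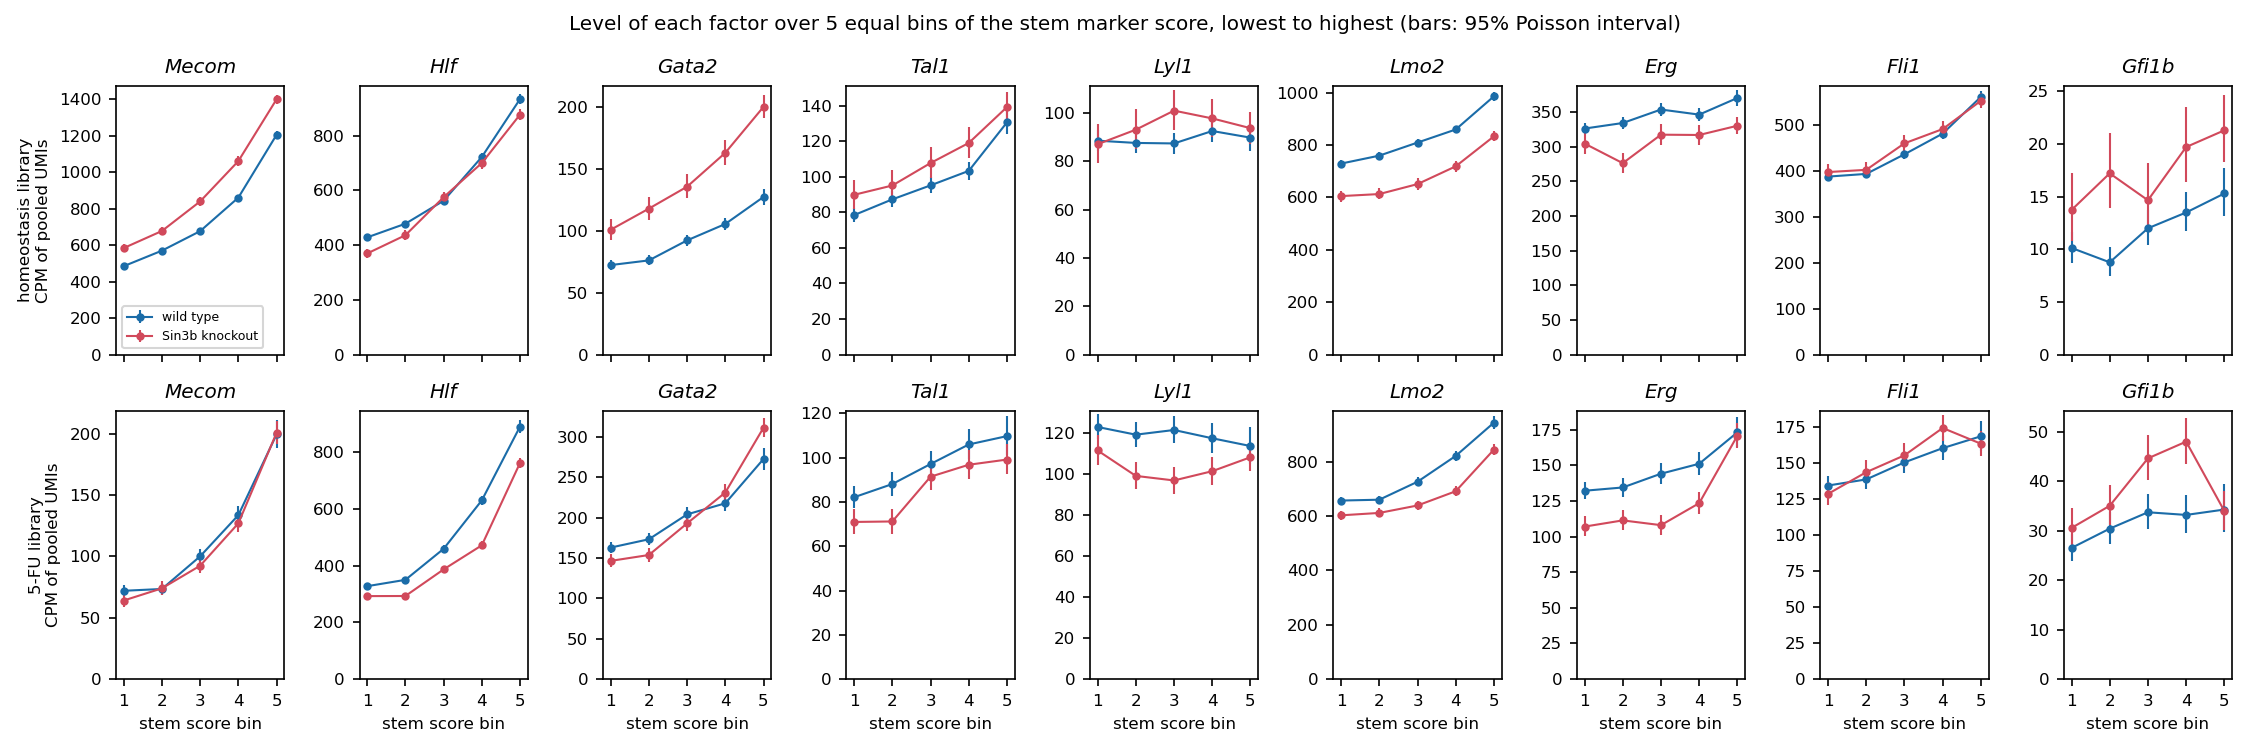
CPM of each factor (y axis, linear from 0) over 5 equal bins of the stem marker score from lowest to highest (x axis), wild type in blue, knockout in red, upper row homeostasis, lower row 5-FU; bars are 95% Poisson intervals. Mecom and Hlf climb toward the highest bin in every pool and Lyl1 stays nearly flat.

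Most LSK cells held UMIs of several of the factors. On cells thinned to 4000 UMIs, stem-class cells of the homeostasis library held a mean of 5.57 of the 9 factors in wild type and 5.63 in the knockout, against 4.38 and 4.58 in myeloid and 4.29 and 4.09 in lymphoid cells. After 5-FU the means were 4.83 and 4.82 in stem, 3.81 and 3.84 in MkE, and 3.70 and 2.90 in myeloid cells. Without thinning the stem means were 6.34 and 6.46 at homeostasis, and the myeloid means after 5-FU were 6.23 and 6.35, at median depths of 13425 and 21798 UMIs, so the 5-FU myeloid difference is seen at equal depth only. Cells with none of the factors were 3 of 9699 wild-type and 3 of 3879 knockout scored cells at homeostasis, and 13 of 4341 and 4 of 3137 after 5-FU. Thinned, Mecom had a UMI in 96.3% (94.8 to 97.4) of wild-type stem and 66.3% (63.7 to 68.8) of lymphoid cells at homeostasis, and 98.4% and 78.1% without thinning. Gata2 had one in 38.3% (35.2 to 41.5) of wild-type and 50.2% (46.6 to 53.8) of knockout stem cells, with 13.8% (12.0 to 15.8) and 16.1% (12.1 to 20.9) in lymphoid cells, a class where the gene is low. The unthinned Gata2 shares were 53.1% and 66.7% in stem cells, at median depths of 5990 and 6076 UMIs. Gfi1b had a UMI in 22.8% (18.6 to 27.3) of wild-type and 32.0% (27.3 to 37.0) of knockout MkE cells after 5-FU, above 2.71% (1.41 to 4.68) and 4.08% (1.78 to 7.88) in lymphoid cells. Unthinned, the MkE shares were 52.9% and 66.1%.

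**Figure D4:**
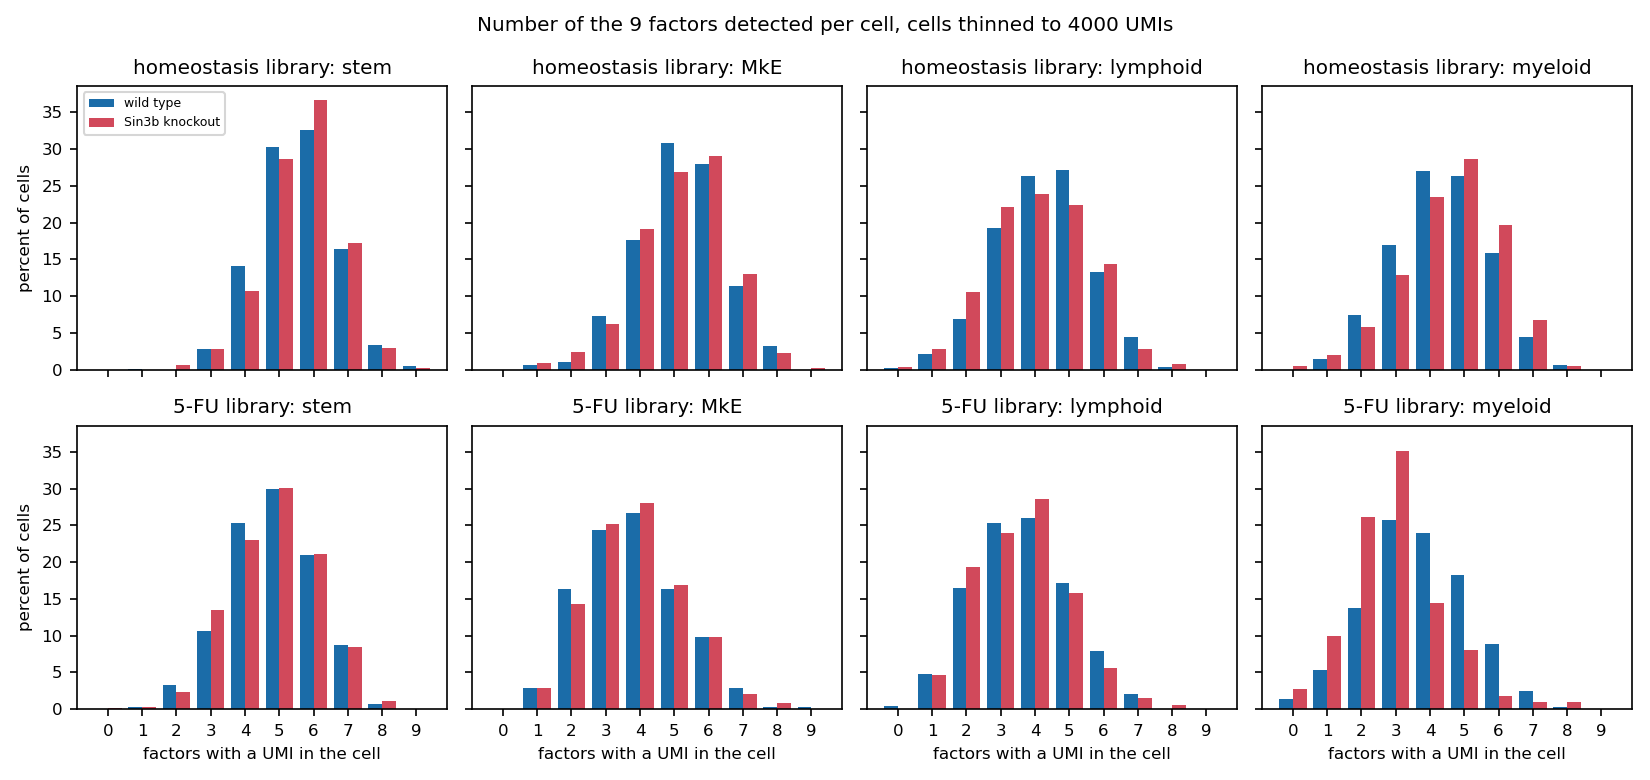
Percent of cells (y axis) by the number of the 9 factors with a UMI in the cell (x axis) after thinning to 4000 UMIs, for 4 marker classes, wild type in blue and knockout in red, upper row homeostasis, lower row 5-FU. Stem cells peak at 6 factors at homeostasis and at 5 after 5-FU, and knockout myeloid cells after 5-FU lie left of wild type.

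Between genotypes, Gata2 was the member that differed most in stem-class cells at homeostasis. It was at 132 CPM (123 to 141) in wild-type and 201 CPM (189 to 213) in knockout stem cells, 1.52-fold higher in the knockout, a log2 ratio of 0.61 (0.48 to 0.74). It was the 1 of 9 members past 1.5-fold there, and no member was lower by that fold, where 3.52% of 11474 genes tested were higher and 4.32% lower. The ratio sits at the edge of the fold, and with k-means hashtag clustering it was 0.58, below it. Over 9 alternatives it ranged from 0.58 to 0.75. Stem markers were themselves higher in the knockout stem class, with a summed gate level of 1143 CPM in wild type and 1459 in knockout and a summed level of the markers kept out of the gates of 409 and 535 CPM, and mast cell markers, a lineage with high Gata2, summed to 15.2 and 10.7 CPM there. Their part in the difference was not tested.

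Other stem-class differences at homeostasis were smaller. Mecom was at 1305 CPM (1277 to 1332) in wild type and 1500.5 CPM (1468 to 1534) in the knockout, a log2 ratio of 0.20 (0.16 to 0.25). Lmo2 was lower in the knockout, at 856 CPM (831 to 881) against 1031 CPM (1006 to 1055), a log2 ratio of -0.27 (-0.32 to -0.21). Erg with -0.20 (-0.29 to -0.11) and Hlf with -0.12 (-0.17 to -0.063) were lower as well, while the intervals of Tal1, Lyl1, Fli1 and Gfi1b held 0. Whether an interval leaves out 0 depends on a gene's UMIs. The share of all genes for which it did was not counted in stem cells of either library. The median over the members was 0.038, beside -0.010 over all genes tested, so the members did not shift together.

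After 5-FU no member passed 1.5-fold in stem-class cells in either direction, where 3.08% of 10391 genes tested were higher and 3.63% lower. Gata2 was at 278 CPM (261 to 296) in wild-type and 327 CPM (313 to 342) in knockout cells, a log2 ratio of 0.24 (0.13 to 0.35). Hlf went the other way, at 992 CPM (960.5 to 1025) and 869 CPM (846 to 893), a log2 ratio of -0.19 (-0.25 to -0.13). Lmo2 was at 1000.4 and 879 CPM, a log2 ratio of -0.19 (-0.25 to -0.13). The intervals of the other 6 members held 0, and those of Mecom at 0.031 (-0.095 to 0.16) and Erg at -0.041 (-0.18 to 0.10) span less than 1.5-fold in either direction. In the stem class of both libraries Gata2 was thus higher and Lmo2 and Hlf lower in the knockout.

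**Figure D5:**
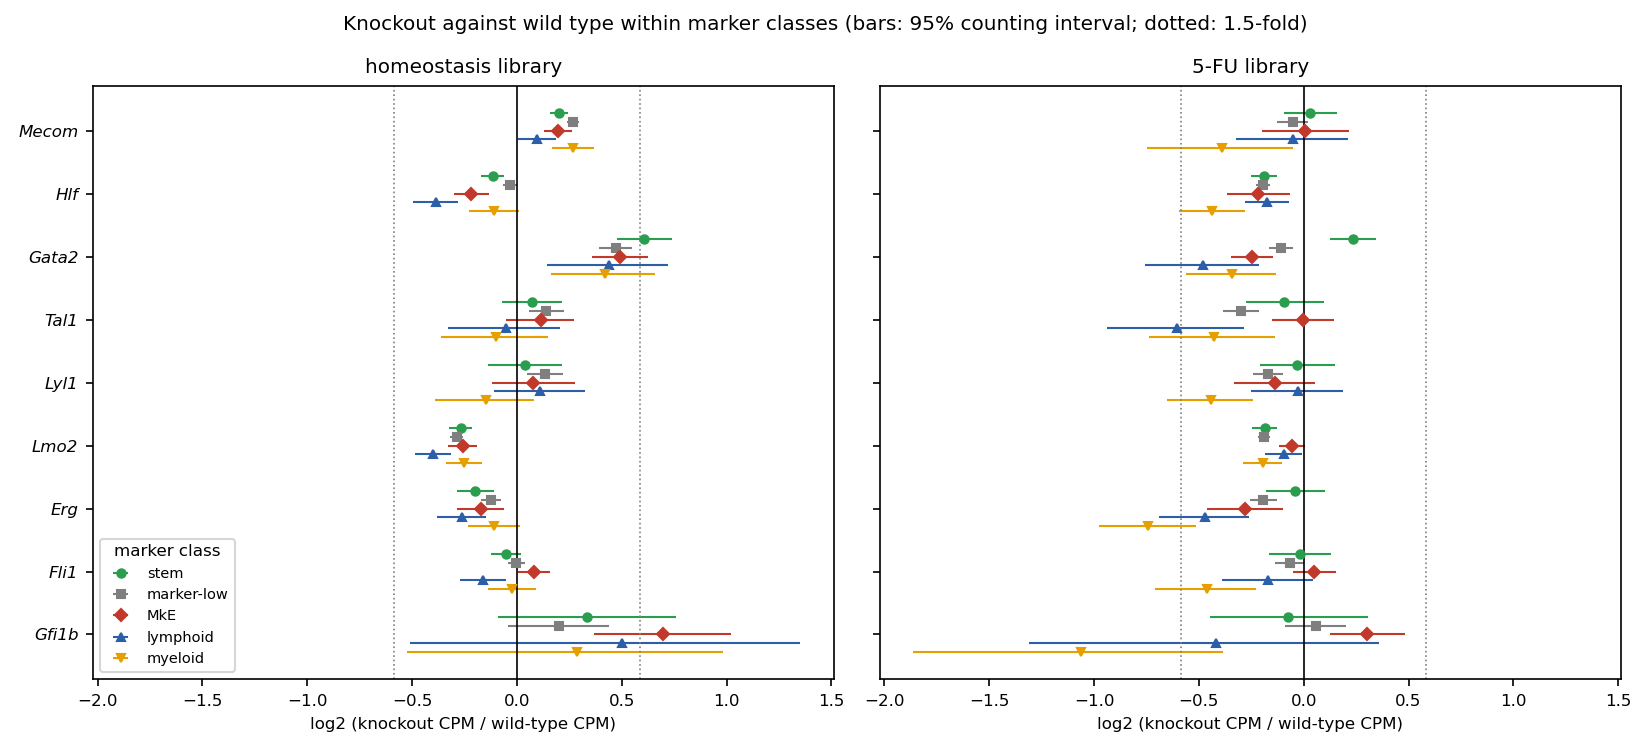
Log2 ratio of knockout to wild-type CPM (x axis) for each factor (y axis) within 5 marker classes, shown by colour and symbol, homeostasis at left and 5-FU at right; bars are 95% counting intervals and dotted lines mark 1.5-fold. Lmo2 lies left of 0 in every class of both libraries, Gata2 lies right of 0 in all classes at homeostasis, and all 9 factors lie left of 0 in myeloid cells after 5-FU.

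In 4 classes outside the stem class Gata2 took opposite directions in the libraries. At homeostasis its knockout level was above wild type in these, with log2 ratios of 0.47 (0.39 to 0.55) in marker-low, 0.49 (0.36 to 0.62) in MkE, 0.44 (0.15 to 0.72) in lymphoid and 0.42 (0.16 to 0.66) in myeloid cells. After 5-FU it was below wild type in the same 4 classes, with -0.11 (-0.16 to -0.052), -0.25 (-0.35 to -0.15), -0.48 (-0.76 to -0.21) and -0.34 (-0.56 to -0.13). Stem markers kept out of the gates were at 159 CPM in wild type and 225 CPM in the knockout in marker-low cells, 201 and 314 in MkE, 69.5 and 61.2 in lymphoid and 79.4 and 87.2 in myeloid cells at homeostasis. After 5-FU these stem markers were at 221 and 225 CPM in marker-low, 372 and 426 in MkE, 96.2 and 67.6 in lymphoid and 74.4 and 47.1 in myeloid cells. Mast cell markers after 5-FU were at 36.5 and 24.9 CPM in marker-low, 47.7 and 14.8 in MkE, 21.8 and 8.17 in lymphoid and 97.3 and 126 in myeloid cells, and at homeostasis they were lower in the knockout in all 4 of these classes. The part of these markers in the Gata2 ratios was not tested. The difference between libraries was not tested, and condition and library cannot be told apart. Lmo2 was lower in the knockout in each of these classes of both libraries, with log2 ratios from -0.40 (-0.48 to -0.32) in lymphoid cells at homeostasis to -0.057 (-0.12 to 0.0064) in MkE cells after 5-FU, the latter with an interval that holds 0. Mecom was higher in the knockout in every class shown at homeostasis, with 0.27 (0.24 to 0.30) in marker-low and 0.27 (0.17 to 0.37) in myeloid cells. Erg was lower in the knockout in all of these classes of both libraries. Its intervals were clear of 0 in marker-low cells at -0.12 (-0.17 to -0.076) and -0.19 (-0.26 to -0.13), homeostasis first. The same held in MkE cells at -0.17 (-0.29 to -0.062) and -0.28 (-0.46 to -0.098) and in lymphoid cells at -0.26 (-0.38 to -0.15) and -0.47 (-0.69 to -0.26). In myeloid cells the Erg interval held 0 at homeostasis, at -0.11 (-0.23 to 0.015), and lay below 0 after 5-FU, at -0.74 (-0.98 to -0.52). Tal1 in lymphoid cells after 5-FU was at 73.3 CPM (65.5 to 81.7) in wild type and 48.1 CPM (39.4 to 58.2) in the knockout, a log2 ratio of -0.60 (-0.94 to -0.29). The share of all genes past 1.5-fold between genotypes was not counted in lymphoid cells.

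Cells of the mixed class, which passed more than 1 marker cut, had higher Gata2, Mecom, Gfi1b, Hlf and Fli1 in the knockout in both libraries. The member median log2 ratio was 0.35 at homeostasis and 0.32 after 5-FU, beside 0.038 and 0.029 over all genes tested. Gata2, Mecom and Gfi1b passed 1.5-fold in both libraries, and the share of all genes past it was not counted in this class. Gata2 was at 91.0 CPM (83.2 to 99.3) in wild type and 189 CPM (171 to 208) in the knockout at homeostasis and at 164 CPM (148 to 182) and 311 CPM (280.3 to 343) after 5-FU, log2 ratios of 1.06 (0.86 to 1.25) and 0.92 (0.71 to 1.13). Mecom ratios were 0.73 (0.66 to 0.80) and 0.62 (0.27 to 0.97) and Gfi1b ratios 1.10 (0.57 to 1.62) and 1.02 (0.58 to 1.46). Hlf ratios were 0.35 (0.26 to 0.44) and 0.28 (0.099 to 0.46) and Fli1 ratios 0.28 (0.18 to 0.38) and 0.39 (0.14 to 0.64). Tal1 was at 0.50 (0.29 to 0.71) at homeostasis, and no member had an interval below 0 in either library. This class held 601 and 271 cells at homeostasis and 181 and 95 after 5-FU, and its summed stem gate markers were 492 against 951 CPM and 328 against 756 CPM, wild type first. Its MkE gate markers summed to 255 against 506 and 591 against 1797 CPM, so its makeup differed between genotypes and its part in the ratios was not tested.

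Gfi1b differed in MkE-class cells. Wild type had 25.3 CPM (21.6 to 29.5) and the knockout 40.9 CPM (34.8 to 47.9) at homeostasis, 1.62-fold higher, and at 75.4 CPM (68.3 to 83.1) and 93.1 CPM (86.2 to 101) after 5-FU, 1.23-fold higher. The MkE gate markers also summed higher in the knockout MkE class, 1246 against 603 CPM at homeostasis and 3134 against 2324 after 5-FU. The MkE markers kept out of the gates were at 827 against 818 and at 1169 against 1129 CPM, knockout first. In wild-type stem cells the latter summed to 783 CPM at homeostasis and 881 CPM after 5-FU, so at homeostasis they hardly part the classes. The part of these markers in the Gfi1b difference was not tested. The share of all genes past 1.5-fold between genotypes was not counted in MkE cells of either library.

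In myeloid-class cells after 5-FU all 9 members were lower in the knockout, each with an interval below 0, which 16% of all genes tested had. Whether an interval leaves out 0 depends on a gene's UMIs, and the 16% was not matched to those of the members. The genotype ratios of this class were not run under the alternatives. Erg was at 136 CPM (126 to 146) in wild-type and 81.0 CPM (70.0 to 93.1) in knockout cells, a log2 ratio of -0.74 (-0.98 to -0.52), and Gfi1b at 17.6 and 8.26 CPM from 100 and 20 UMIs, -1.06 (-1.86 to -0.39). These 2 passed 1.5-fold, where 7.97% of genes were lower and 3.05% higher, and the other 7 lay between -0.46 (-0.71 to -0.23) for Fli1 and -0.20 (-0.29 to -0.10) for Lmo2. The median was -0.44, beside -0.053 over all genes tested. This class held 372 wild-type and 111 knockout cells, at median depths of 13425 and 21798 UMIs, and the myeloid gate markers summed to 2472 and 2651 CPM. The summed stem gate markers there were 126 and 111 CPM and the lymphoid ones 226 and 132 CPM. The markers kept out of the gates were lower with the members, at 74.4 and 47.1 CPM for stem, 382 and 277 for MkE and 370.2 and 261 for lymphoid genes, beside 258 and 253 for myeloid genes. The part of depth and of these markers was not tested. In the same class at homeostasis 0 members passed 1.5-fold (3.47% of genes higher, 5.8% lower), the member median was -0.099, Mecom and Gata2 were higher and Lmo2 lower in the knockout at -0.25 (-0.34 to -0.16), and the intervals of the other 6 members held 0.

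Over all kept cells the pools differ in makeup as well as in level, so a ratio over them mixes the shares of the classes with the levels within them. At homeostasis Gata2 with a log2 ratio of 0.71 (0.65 to 0.76) and Gfi1b with 0.60 (0.45 to 0.75) were higher in the knockout by 1.5-fold, 2 of 9 members, and none was lower, where 5.41% of 15507 genes tested were higher and 5.16% lower. Mecom was at 725 and 968 CPM, a log2 ratio of 0.42 (0.40 to 0.44). Averaged within classes at the wild-type makeup, Gata2 was at 0.51, Gfi1b at 0.36 and Mecom at 0.27, and 0 members passed the fold. After 5-FU 0 of 9 members passed it in all kept cells in either direction (3.67% of 13508 genes tested higher, 4.8% lower). The largest ratios were 0.31 (0.21 to 0.41) for Gfi1b, which was at -0.051 averaged within classes, and -0.22 (-0.27 to -0.16) for Lyl1.

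Partners, relatives and target genes of the group were described in stem-class cells. Of 16 complex partners (Runx1 and Cbfb, Ldb1 with its Ssbp adaptors, the E proteins, the corepressors Cbfa2t2 and Cbfa2t3, Kdm1a, Rcor1, Hdac1, Hdac2 and Spi1), all were tested and 0 passed 1.5-fold between genotypes in either library, where 3.52% of all genes tested were higher and 4.32% lower at homeostasis and 3.08% and 3.63% after 5-FU, with median log2 ratios of -0.054 at homeostasis and -0.13 after 5-FU. The largest at homeostasis was Ssbp4, an adaptor of Ldb1, at 34.9 CPM in wild-type and 23.4 CPM in knockout stem-class cells, a log2 ratio of -0.58 (-0.90 to -0.26). After 5-FU it was its relative Ssbp2, at 187 CPM in wild-type and 145 CPM in knockout stem-class cells, a log2 ratio of -0.37 (-0.51 to -0.22). Runx1, the seventh heptad factor, was at 741 CPM in wild-type and 828 CPM in knockout stem-class cells, a log2 ratio of 0.16 (0.10 to 0.22) at homeostasis and at 208 CPM in wild-type and 181 CPM in knockout stem-class cells, a log2 ratio of -0.20 (-0.34 to -0.067) after 5-FU. Of 10 relatives, 9 reached 50 UMIs in each library and 1 was lower by 1.5-fold in each, beside 4.32% and 3.63% of all genes tested. That was Gata1, the erythroid GATA factor, at 5.67 CPM in wild-type and 2.66 CPM in knockout stem-class cells, a log2 ratio of -1.06 (-2.09 to -0.17) at homeostasis, from 38 and 14 UMIs, and at 9.98 CPM in wild-type and 5.11 CPM in knockout stem-class cells, a log2 ratio of -0.96 (-1.70 to -0.24) after 5-FU, from 37 and 31 UMIs. Of 12 target genes, 1 was higher by 1.5-fold at homeostasis and 0 were lower, beside 3.52% and 4.32% of all genes tested. After 5-FU 0 were past the fold in either direction, beside 3.08% and 3.63%. Tek, the angiopoietin receptor Tie2, did not pass it in either library. Tek was higher in the knockout at homeostasis, at 27.3 CPM in wild-type and 40.5 CPM in knockout stem-class cells, a log2 ratio of 0.57 (0.28 to 0.86). It was lower after 5-FU, at 21.8 CPM in wild-type and 15.8 CPM in knockout stem-class cells, a log2 ratio of -0.47 (-0.91 to -0.020).

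The same lists over wild-type classes differed in their gradients. In myeloid cells 8 of 12 target genes at homeostasis and 9 after 5-FU were lower than in stem cells by 1.5-fold and none was higher, against 1 and 0 of 16 complex partners lower and 19.2% and 23.3% of all genes tested. In lymphoid cells 9 and 7 target genes were lower and 1 higher in each library, where 12.5% and 10.4% of genes were lower and 7.42% and 6.47% higher. In MkE cells 4 and 6 were lower, beside 10.1% and 21% of genes, and none was higher. Of the complex partners, 0 and 1 were higher in myeloid cells, 1 and 0 in lymphoid cells with 0 and 0 lower, and 0 and 2 in MkE cells with 0 and 3 lower, homeostasis first. Of the 9 or 10 relatives tested, 3 and 4 were lower and 0 higher in myeloid cells, 3 and 3 lower and 2 and 0 higher in lymphoid cells, and 3 and 5 lower and 1 in each library higher in MkE cells. The median log2 ratio in myeloid, lymphoid and MkE cells at homeostasis was -0.99, -0.96 and -0.32 for the targets, -0.025, 0.051 and -0.0059 for the partners and -0.090, -0.0093 and -0.12 for the relatives. After 5-FU it was -0.96, -0.72 and -0.64 for the targets, -0.23, -0.047 and -0.078 for the partners and -0.51, -0.12 and -0.67 for the relatives.

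Likeness of patterns was read over 24 pools (6 classes, 2 genotypes and 2 libraries) as Pearson's r of log2(CPM + 1), centred within each library. The pools of a library share its depth and gates, so the values are a description with no test. Gata2, Tal1, Fli1 and Gfi1b were alike, with r of 0.93 for Gata2 and Tal1, 0.89 for Tal1 and Fli1, and 0.88 for Fli1 and Gfi1b. Mecom was closest among members to Hlf, at 0.84, and Hlf to Erg, at 0.85. Pairs of relatives were not alike, with -0.12 for Erg and Fli1 and -0.34 for Tal1 and Lyl1. Among 11172 genes with at least 200 UMIs in each library, those closest to Mecom were Samd12 (r = 0.97), Gm31645 (r = 0.97) and Prex2 (r = 0.97). Closest to Hlf were Msi2 (r = 0.97), Emcn (r = 0.97) and Bend7 (r = 0.97), and closest to Gata2 Cd55 (r = 0.96), Itgb3 (r = 0.96) and Slamf1 (r = 0.96). For Tal1 they were Fry (r = 0.96), Svil (r = 0.96) and Aldh1a1 (r = 0.96), for Fli1 they included Med12l (r = 0.95) and Psd3 (r = 0.95), and for Gfi1b Gp5 (r = 0.96), Treml1 (r = 0.96) and Gm45353 (r = 0.95), of which Gp5 and Treml1 are megakaryocyte and platelet genes. For Erg they were Stat3 (r = 0.93), Fchsd2 (r = 0.92) and Robo4 (r = 0.92), and for Lmo2 Myo6 (r = 0.94), Vmac (r = 0.92) and Cpq (r = 0.92). Lyl1 had the lowest values, with BC028528 (r = 0.90), Ikzf2 (r = 0.90) and Laptm4b (r = 0.88).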

How the data were processed

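LSK cell libraries at homeostasis and after 5-FU were used, with the hashtag counts of each in the same matrix. The authors deposited raw counts, that is UMIs of each gene in each barcode, from Cell Ranger 4 (homeostasis) and 6.0.1 (5-FU), per the file headers. The submitters' processing notes also list build mm9, Seurat and DESeq2. The homeostasis matrix had 6794880 barcodes, unfiltered, and the 5-FU matrix 12753 selected by the software. For homeostasis, the 23931 barcodes with 2921 or more UMIs were taken as cells, a limit set at 10% of the 99th percentile over the 10000 deepest. Homeostasis rows took their gene names from the 5-FU feature list (correlation of log counts 0.926 in the given order, at most 0.395 when shifted by 1 to 3 rows).

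Hashtags were assigned with HTODemux (Seurat 5.3.0, R 4.3.3, positive quantile 0.99). Double-tagged cells (1441 and 434) and untagged cells (6283 and 3290) were left out, and doublets within a genotype were not sought. The extreme 2% at each end for UMIs, detected genes and mitochondrial share were trimmed, and a cell with at least 2 UMIs from 9 genes of mature lineages was discarded. For marker scores each cell was thinned to 4000 UMIs. Cells below that depth were not scored, which were 484 wild-type and 225 knockout cells (homeostasis) and 512 and 168 (5-FU). The gates were Procr, Fgd5, Mllt3, Pdzk1ip1, Clec1a, Tgm2, Ctnnal1 and Hoxb5 (stem), Mpo, Elane, Prtn3, Ctsg and Ms4a3 (myeloid), Pf4, Itga2b, Car1, Klf1, Epor and Zfpm1 (MkE), and Dntt, Flt3, Rag1, Satb1, Notch1 and Ighm (lymphoid), of which Rag1 was nearly absent. The markers kept out of the gates were 6 stem genes, among them Slamf1, Mmrn1, Aldh1a1, Cdkn1c and Meg3, then Cebpa, Cebpe, Fcgr3, Irf8 and Lyz2, then Gata1, Mfsd2b, Cnrip1, Car2 and Gp9, and then Rag2, Blnk, Lsp1, Mef2c and Ltb, in the same order of classes.

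Counts were summed per genotype and class and scaled to CPM. Ratios had 0.5 UMIs added, and no significance test was made, since each genotype was 1 pool per library. The ratio and interval calculation was tested on simulated data (scipy 1.17.1, numpy 2.4.6). All 9 members are described. The relatives were Prdm16, Tef, Dbp, Nfil3, Gata1, Gata3, Lmo4, Gfi1, Etv6 and Elf1, and the 12 target genes included Kit, Tek, Tie1, Eng, Esam, Angpt1, Nfe2, Hhex, Myct1, Emcn and Egfl7, and Gata1 is also a marker kept out of the gates. Some genes of these lists and of the likeness ranking were used in the counts and sums but are not reported here. From the partner, relative and target lists the genes with the largest stem-class ratios among those tested and reported here are named. Runx1 was added after its values were seen, and likeness names the 3 closest genes. The members and lists were chosen with earlier results of these data known. Alternatives were another hashtag rule, no trim, no lineage filter, median-of-ratios scaling, per-cell means, another score cut, unthinned scores, other gates and a lower count minimum, and k-means hashtag clustering, which was chosen after seeing the data.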

Additional observations from a re-analysis of the deposited data

Results flagged for a closer look

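Some members had counting intervals of the knockout to wild-type log2 ratio on opposite sides of 0 in the homeostasis and 5-FU libraries. These differences between libraries were not tested, rest on 1 pool per genotype, and cannot be told apart from differences between the libraries. The share of all genes with intervals on opposite sides of 0 was not counted. Genes with many UMIs have narrow intervals, which can leave out 0 at small ratios. Gata2 was the most frequent, with 0.47 at homeostasis and -0.11 after 5-FU in marker-low cells, 0.49 at homeostasis and -0.25 after 5-FU in MkE cells, 0.44 at homeostasis and -0.48 after 5-FU in lymphoid cells and 0.42 at homeostasis and -0.34 after 5-FU in myeloid cells. In mixed cells Gata2 was higher in the knockout in both libraries, at 1.06 at homeostasis and 0.92 after 5-FU. Mecom in myeloid cells was at 0.27 at homeostasis and -0.39 after 5-FU. Tal1 was at 0.14 at homeostasis and -0.30 after 5-FU in marker-low cells and at 0.24 at homeostasis and -0.14 after 5-FU in all kept cells. Lyl1 was at 0.14 at homeostasis and -0.17 after 5-FU in marker-low cells and at 0.083 at homeostasis and -0.22 after 5-FU in all kept cells. Hlf in all kept cells was at 0.065 at homeostasis and -0.14 after 5-FU. Over the alternatives this homeostasis value ranged from -0.085 to 0.20. Within classes at homeostasis Hlf was at -0.12 in stem, -0.031 in marker-low, -0.11 in myeloid, -0.22 in MkE and -0.39 in lymphoid cells. In mixed cells it was at 0.35, and the marker-low and myeloid intervals held 0. No member had intervals on opposite sides of 0 between the libraries in stem-class cells.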

How the results depend on the processing

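The knockout to wild-type direction of Gata2 in stem cells was higher under every alternative run in both libraries, from 0.58 to 0.75 and from 0.16 to 0.29 on the log2 scale, and Lmo2 was lower under every one, from -0.37 to -0.24 and from -0.23 to -0.12. With k-means hashtag clustering 0 members were higher by 1.5-fold in stem cells at homeostasis and, in the MkE gradient, 0 at homeostasis and 2 after 5-FU. For all kept cells at homeostasis the count higher was 1 with median-of-ratios scaling, 1 with per-cell means and 0 with within-class ratios, and the median was 0.24 under the rule that 1 tag makes up 80% of the hashtag UMIs, which left 868 knockout cells. After 5-FU this median was -0.024 with per-cell means, -0.15 within classes and -0.15 without the trim. With median-of-ratios scaling the gradient medians were -0.58 (myeloid, homeostasis), -0.36 (myeloid, 5-FU) and -0.36 (MkE, 5-FU), with 1 higher and 3 lower in myeloid and 2 higher in MkE cells after 5-FU. Per-cell means gave 4 lower in myeloid cells after 5-FU. A cut of 1.5 SD gave medians of -0.99 (myeloid) and -1.42 (lymphoid) at homeostasis and -0.76 (lymphoid) after 5-FU. The markers kept out of the gates, used as gates, flattened the gradients, to medians of -0.53 (myeloid) and -0.35 (lymphoid) at homeostasis and -0.16 (MkE) and -0.20 (lymphoid) after 5-FU, with 0 higher and 1 lower in MkE cells at homeostasis, 0 and 2 after 5-FU, 4 lower in myeloid and 2 lower in lymphoid cells after 5-FU. They also turned Gfi1b in MkE cells at homeostasis to -0.071 and Hlf in lymphoid cells after 5-FU to 0.087. The 80% tag rule, no lineage removal and unthinned scores each gave 2 higher in MkE cells after 5-FU. The share of all genes past 1.5-fold was not counted under these scalings, tag rules and gates, so these member counts have no share beside them. The causes were not tested. No paired analysis was possible because each genotype was 1 pool per library, and no replicate could be left out. Depth limits Gfi1b most, whose class pools held as few as 14 UMIs.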
